A study of Ovis aries with 22 samples.

Results

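The 9 genes described here belong to the T cell receptor complex and its first signalling steps, and they were followed through the arterial sinus wall of sheep: CD3D, CD3E and CD247, which encode signalling chains of the receptor, the co-receptors CD4 and CD8A, the adhesion receptor CD2, the kinases LCK and ZAP70, and the interleukin-7 receptor gene IL7R. The genes were taken by symbol from a fixed list of 9. Of these, 8 had an entry among the 26200 gene symbols of the count tables and 7 had enough counts to be tested. ZAP70 was not analysed here. CD4 was too low to test and is given as counts.

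RNA sequencing was done on whole sinus wall. Autograft sinus came from 3 animals, 6 months after the Ross procedure, an operation that moves the pulmonary root into the aortic position, where it is called the pulmonary autograft. Native aortic sinus and native pulmonary sinus came from the same 4 other animals, D3 to D6, which the design text describes as not operated. Each replicate of a group is 1 animal per the labels, and no breed, sex or age is given there. The label of aortic replicate 1 (animal D3) gives Ross surgery as the treatment, against the design text, so results are also given without animal D3. The autograft differs from native pulmonary sinus by the operation, the position and the animals at once, and these cannot be told apart.

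The T cell receptor recognises antigen with a variable pair of chains that cannot signal alone. The CD3 chains and the CD247 chain carry the signal into the cell, LCK, held by CD4 or CD8, phosphorylates them, and ZAP70 binds the phosphorylated chains. The interleukin-7 receptor keeps resting and memory T cells alive. In the wall of large arteries T cells are normally sparse and lie mostly in the adventitia.

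Summed library totals lay between 17380599 and 20741334 counts. Defining smooth muscle genes were abundant in every library, with a summed level of 24070 to 47750 CPM (each count scaled to a fixed library size) in autograft libraries, 49101 to 69510 in aortic libraries and 51127 to 83702 in pulmonary libraries. Autograft replicate 1 stood apart on the second principal component, and pulmonary replicate 1 lay beside the aortic libraries on the first. Calls were therefore also made without these 2 libraries.

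The genes were low in all groups and higher in the autograft. Against pulmonary sinus, 5 of the 7 tested genes rose (CD3D, CD3E, CD247, LCK and IL7R), by 2.52-fold to 18.1-fold. A rise was called at an adjusted p under 0.05 in edgeR's quasi-likelihood test over all 14979 genes tested, where 6.05% of genes were called higher and 5.29% lower. Against aortic sinus, 3 of the 7 rose (CD3E, CD247 and LCK), by 2.56-fold to 6.74-fold, where 0.948% of all genes were called higher and 1.43% lower. LCK passed the filter on low counts only through the autograft libraries. Of the 6 genes that passed on native libraries alone, CD3D, CD3E, CD247 and IL7R rose against pulmonary sinus, and CD3E and CD247 against aortic sinus. Between aortic and pulmonary sinus none of the 7 was called, nor was any other gene, so 0% of all genes. There 306 genes, 2.04%, had an unadjusted p under 0.05, and DESeq2 and limma-voom also called 0 genes. With DESeq2, 6 and 5 of the 7 were called against pulmonary and aortic sinus, beside 10.9% and 5.03% of all genes called higher, and with limma-voom also 6 and 5, beside 6.01% and 1.26%. The median log2 fold change of the 7 was 3.01 against pulmonary sinus, 2.15 against aortic sinus and 0.55 between aortic and pulmonary sinus, beside 0.001, 0.002 and 0.003 for all genes tested. Both autograft comparisons use the same 3 autograft libraries, so their values are side by side and not independent. In whole tissue, a change in the number of T cells and a change in RNA per T cell cannot be told apart.

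**Figure D1:**
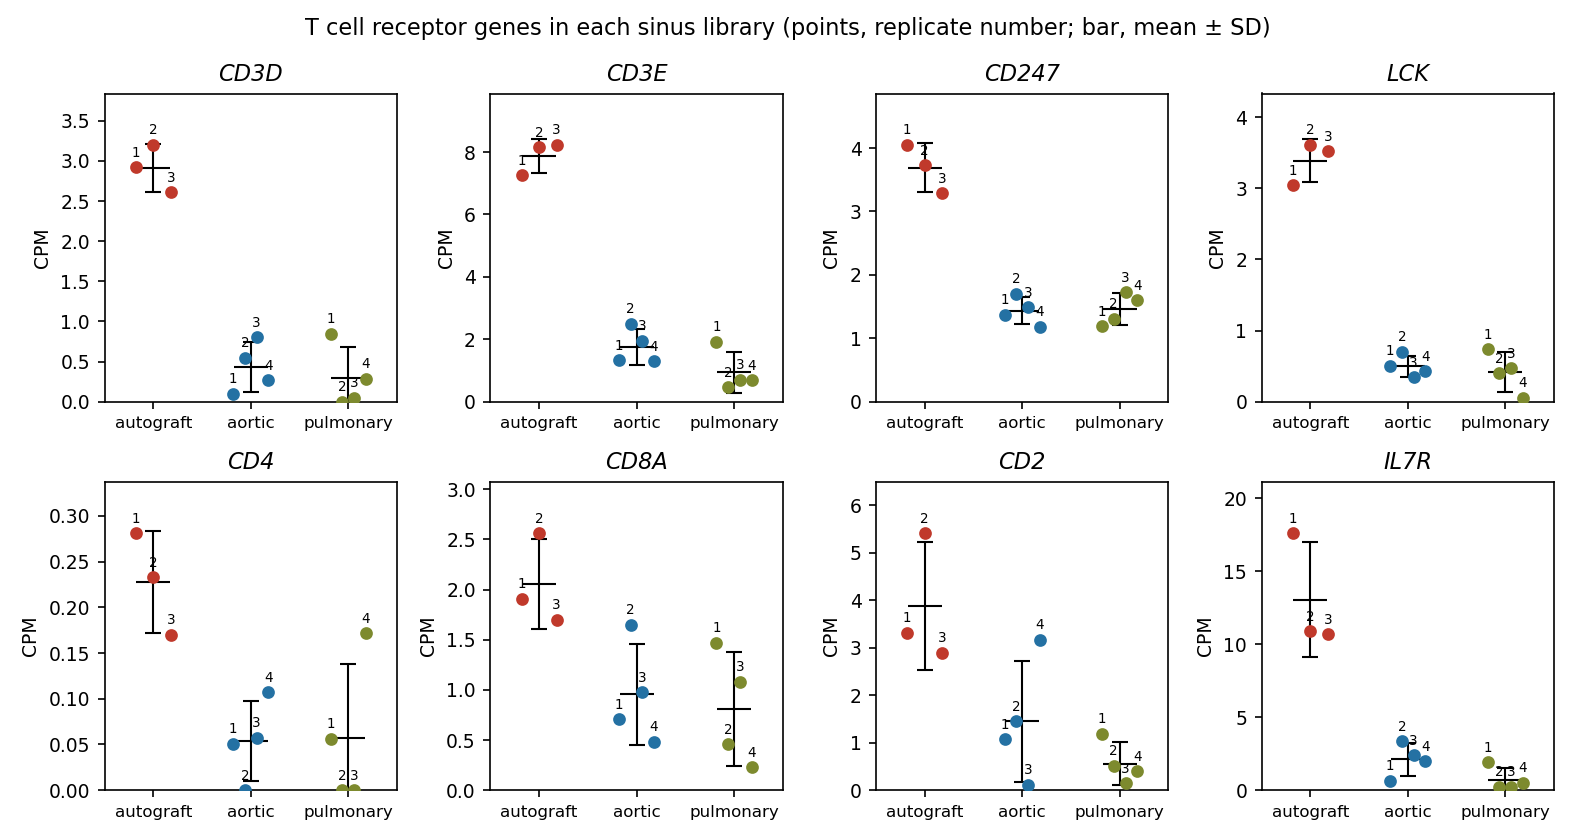
Level of each measured gene in every library, in CPM on a linear axis that starts at 0 and differs between panels. Points are libraries with their replicate numbers, and bars give mean ± SD for autograft (n = 3), aortic (n = 4) and pulmonary sinus (n = 4). All 3 autograft libraries lie above all native libraries for CD3D, CD3E, CD247, CD8A, LCK and IL7R, while aortic replicate 4 reaches the autograft level for CD2.

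CD3E, the gene of the epsilon chain that pairs with the other CD3 chains, had the most counts of the receptor chains. It had 7.26, 8.15 and 8.23 CPM in the autograft libraries, 1.32, 2.5, 1.95 and 1.29 CPM in the aortic libraries and 1.92, 0.457, 0.703 and 0.686 CPM in the pulmonary libraries. The lowest autograft library was above every native library, and pulmonary replicate 1 was well above the other 3 pulmonary libraries. CD3E rose 8.33-fold against pulmonary sinus, a log2 fold change of 3.06 ± 0.45 (SE), with an adjusted p of 0.00713 in edgeR's test, and this call was kept in all 11 fits that left out 1 library. Against aortic sinus it rose 4.45-fold (log2 2.15 ± 0.43) with an edgeR adjusted p of 0.0347.

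CD3D, the gene of the delta chain, was close to the detection limit in native tissue. The autograft libraries held 52, 55 and 46 counts, the aortic libraries 2, 11, 14 and 5, and the pulmonary libraries 15, 0, 1 and 5. In CPM these were 2.92, 3.2 and 2.61 in autograft, 0.101, 0.55, 0.803 and 0.269 in aortic and 0.847, 0, 0.0468 and 0.286 in pulmonary sinus. A count of 0 in pulmonary replicate 2 allows up to 0.171 CPM, the level of 3 counts, and covers counting error only. All autograft libraries lay above all native ones. The log2 fold change was 3.29 ± 0.91 (SE) against pulmonary sinus, with an edgeR adjusted p of 0.0429, and 2.75 ± 0.88 against aortic sinus, where the adjusted p of 0.11 was not past the threshold. The pulmonary call was the least stable of the 5: it was lost in 9 of 11 fits with 1 library left out, those without any single autograft library, without aortic replicate 2, 3 or 4 and without pulmonary replicate 2, 3 or 4, with an edgeR adjusted p of up to 0.103 (without pulmonary replicate 3). With the replicate number of the labels as a fixed block, which puts autograft animals in 1 block with other animals of the same number, it was also lost (edgeR adjusted p 0.0793). With the animal as a random block it was kept (limma-voom adjusted p 0.0161).

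CD247, the gene of the zeta chain, which natural killer cells also use, changed least among the receptor chains. Its level was 4.05, 3.73 and 3.29 CPM in autograft, 1.37, 1.7, 1.49 and 1.18 CPM in aortic and 1.19, 1.31, 1.73 and 1.6 CPM in pulmonary sinus. The 8 native libraries were close to each other and all below the autograft libraries. CD247 rose 2.52-fold against pulmonary sinus (log2 1.33 ± 0.27 SE, edgeR adjusted p 0.0156) and 2.56-fold against aortic sinus (log2 1.36 ± 0.27, edgeR adjusted p 0.0338). Without autograft replicate 2 the pulmonary call was lost at an edgeR adjusted p of 0.0509.

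Per 100 counts of CD3E, CD247 had 55.8, 45.7 and 40 counts in the autograft libraries, 104, 68, 76.5 and 91.7 in the aortic libraries and 61.8, 288, 247 and 233 in the pulmonary libraries. CD247 thus outnumbered CD3E in pulmonary replicates 2 to 4 and in aortic replicate 1, and no autograft library overlapped the native ones. The mean log2 ratio, with a pseudocount of 2, was -1.07 ± 0.24 (SD, n = 3) in autograft, -0.24 ± 0.26 (n = 4) in aortic and 0.74 ± 0.93 (n = 4) in pulmonary sinus. It was lower by -0.83 in autograft than in aortic sinus (two-sided exact permutation p = 0.0286, the smallest that 3 against 4 libraries can give) and by -1.82 than in pulmonary sinus (exact permutation p = 0.0571). Over the 9 ratio tests both have an adjusted p of 0.257, so neither passed the correction.

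LCK, the kinase that starts receptor signalling, was near background in native wall. The autograft libraries had 3.04, 3.61 and 3.52 CPM, against 0.507, 0.7, 0.344 and 0.43 CPM in aortic and 0.734, 0.4, 0.468 and 0.0572 CPM in pulmonary libraries. The groups did not overlap, and the lowest autograft value was several times the highest native value. LCK rose 8.03-fold against pulmonary sinus (log2 3.01 ± 0.54 SE, edgeR adjusted p 0.0124), a call kept in all 11 fits with 1 library left out. Against aortic sinus it rose 6.74-fold (log2 2.75 ± 0.53, edgeR adjusted p 0.0338). LCK alone among the tested genes passed the filter on low counts only through the autograft libraries, so its entry into the test already required a high autograft level.

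CD8A, the co-receptor chain of cytotoxic T cells, differed less. It had 1.91, 2.56 and 1.7 CPM in autograft, 0.71, 1.65, 0.976 and 0.483 CPM in aortic and 1.47, 0.457, 1.08 and 0.229 CPM in pulmonary libraries. No native library reached the lowest autograft library, but aortic replicate 2 was close to it. The log2 fold change was 1.34 ± 0.58 (SE) against pulmonary sinus and 1.1 ± 0.58 against aortic sinus, with edgeR adjusted p of 0.148 and 0.281, and neither was called.

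CD4, the co-receptor of helper T cells, was barely counted, with 5, 4 and 3 counts in the autograft libraries, 1, 0, 1 and 2 in the aortic libraries and 1, 0, 0 and 3 in the pulmonary libraries. In the native groups every library was at or under 3 counts, so no fold is given. Over each group, CD8A had 108 counts in autograft against 12 for CD4, 73 against 4 in aortic and 61 against 4 in pulmonary sinus. Counts of 2 genes of different length are not comparable as levels, but their ratio is comparable between groups. The mean log2 ratio of CD8A to CD4 (pseudocount 2) was 2.66 ± 0.29 in autograft (SD, n = 3), 2.67 ± 1.1 in aortic and 2.36 ± 1.5 in pulmonary sinus (n = 4 each). Autograft and aortic sinus differed by -0.01 (exact permutation p = 1) and autograft and pulmonary sinus by 0.3 (exact permutation p = 0.857), both within the spread of the native libraries. At 0 to 5 counts of CD4 a library, a shift in this ratio was not detectable at this depth.

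CD2, an adhesion receptor of T cells and natural killer cells, varied widely between native libraries. The autograft libraries had 3.32, 5.41 and 2.9 CPM, the aortic libraries 1.07, 1.45, 0.115 and 3.17 CPM and the pulmonary libraries 1.19, 0.514, 0.141 and 0.4 CPM. Aortic replicate 4 overlapped the autograft range, while aortic replicate 3 was at 2 counts, and all pulmonary libraries lay below the autograft. The log2 fold change was 2.79 ± 0.82 (SE) against pulmonary sinus, with an edgeR adjusted p of 0.0507, and 1.41 ± 0.78 against aortic sinus, with an edgeR adjusted p of 0.3. Against pulmonary sinus, CD2 passed in 3 of 11 fits that left out 1 library, those without pulmonary replicate 1 (edgeR adjusted p 0.026), aortic replicate 3 (0.0287) or aortic replicate 4 (0.0482), also with the replicate number as a fixed block (edgeR adjusted p 0.0251) and with the animal as a random block (limma-voom adjusted p 0.0443).

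IL7R showed the steepest rise against pulmonary sinus. It had 17.6, 10.9 and 10.7 CPM in the autograft libraries, 0.66, 3.35, 2.41 and 1.99 CPM in the aortic libraries and 1.92, 0.228, 0.234 and 0.515 CPM in the pulmonary libraries. Autograft replicate 1 was the highest, no native library came near the autograft range, and pulmonary replicate 1 again stood above the other 3. IL7R rose 18.1-fold against pulmonary sinus (log2 4.17 ± 0.71 SE, edgeR adjusted p 0.0109), a call kept in all 11 fits that left out 1 library. Against aortic sinus the log2 fold change was 2.63 ± 0.66 with an edgeR adjusted p of 0.061, which was not past the threshold. That comparison passed without pulmonary replicate 1 (edgeR adjusted p 0.0238) and without animal D3 (edgeR adjusted p 0.034).

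**Figure D2:**
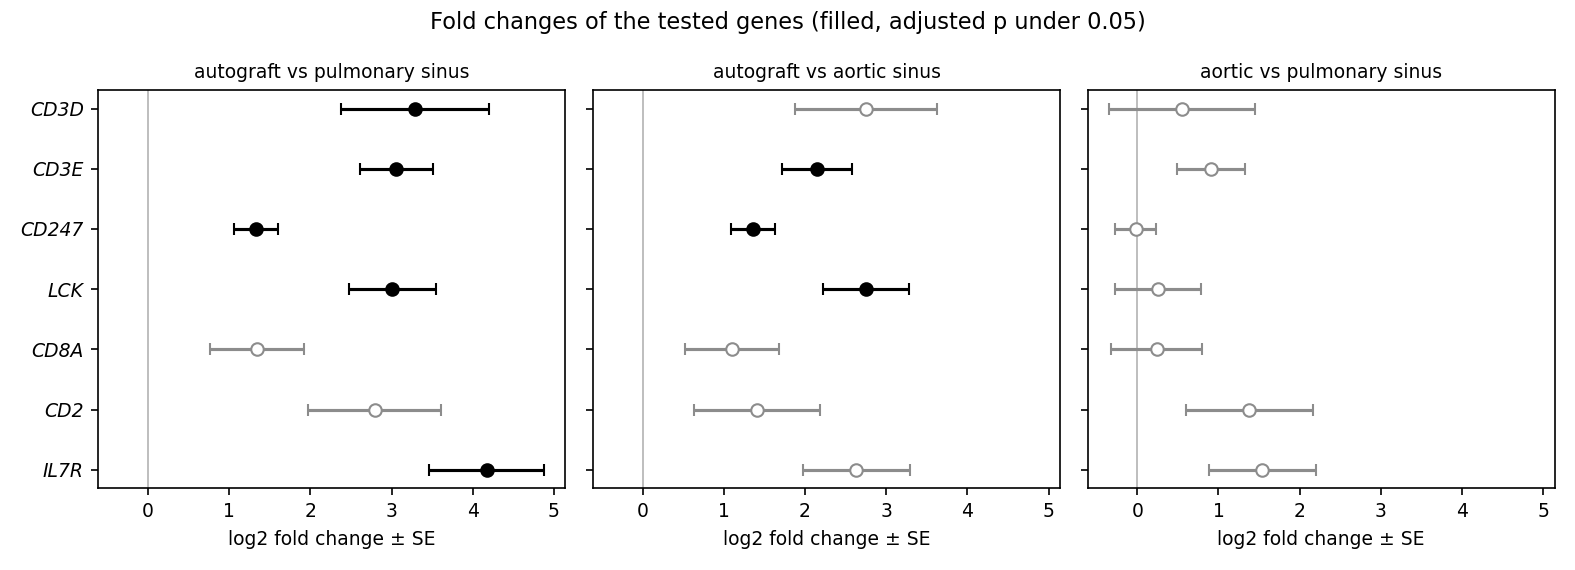
Log2 fold change with its standard error (horizontal bars) of the 7 tested genes in the 3 comparisons. Filled points have an edgeR adjusted p under 0.05: 5 against pulmonary sinus, 3 against aortic sinus and 0 between aortic and pulmonary sinus.

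All 7 tested genes had every autograft library above every pulmonary library, where 10.9% of all tested genes did so, and 6 of 7 (all but CD2) had every autograft library above every aortic library, where 9.77% did so. LCK is in both counts, although it entered the test only through its autograft level. Between aortic and pulmonary sinus the libraries of every one of the 7 overlapped, where 0.714% of all tested genes lay wholly higher and 0.701% wholly lower. There the log2 fold changes were 1.54 ± 0.66 (SE) for IL7R, with an unadjusted edgeR p of 0.0399, then 1.38 ± 0.78 for CD2, 0.91 ± 0.42 for CD3E, 0.55 ± 0.9 for CD3D, 0.25 ± 0.53 for LCK, 0.24 ± 0.56 for CD8A and -0.02 ± 0.25 for CD247. The edgeR adjusted p was 1 for all of them.

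The aortic calls depended on each autograft and aortic library. With 1 library left out, the number of all genes called against aortic sinus ran from 25 to 576, so calls were not lost in these genes alone. Leaving out any 1 of the 3 autograft or 4 aortic libraries ended the calls of CD3E, CD247 and LCK together, with edgeR adjusted p of up to 0.0956, 0.0956 and 0.0969, all without aortic replicate 3. Leaving out a pulmonary library kept all 3. Without animal D3, whose aortic library has the conflicting label, 6 genes were called against pulmonary sinus and 2 (CD3E and IL7R) against aortic sinus. CD247 then had an edgeR adjusted p of 0.0707 and LCK of 0.0614. Without both autograft replicate 1 and pulmonary replicate 1, 6 genes were called against pulmonary and 3 against aortic sinus. The number of all genes called also moved between fits, so these counts are not read alone. Over the 16 alternatives that include both fits, it was 479 to 2997 against pulmonary and 110 to 1469 against aortic sinus.

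**Figure D3:**
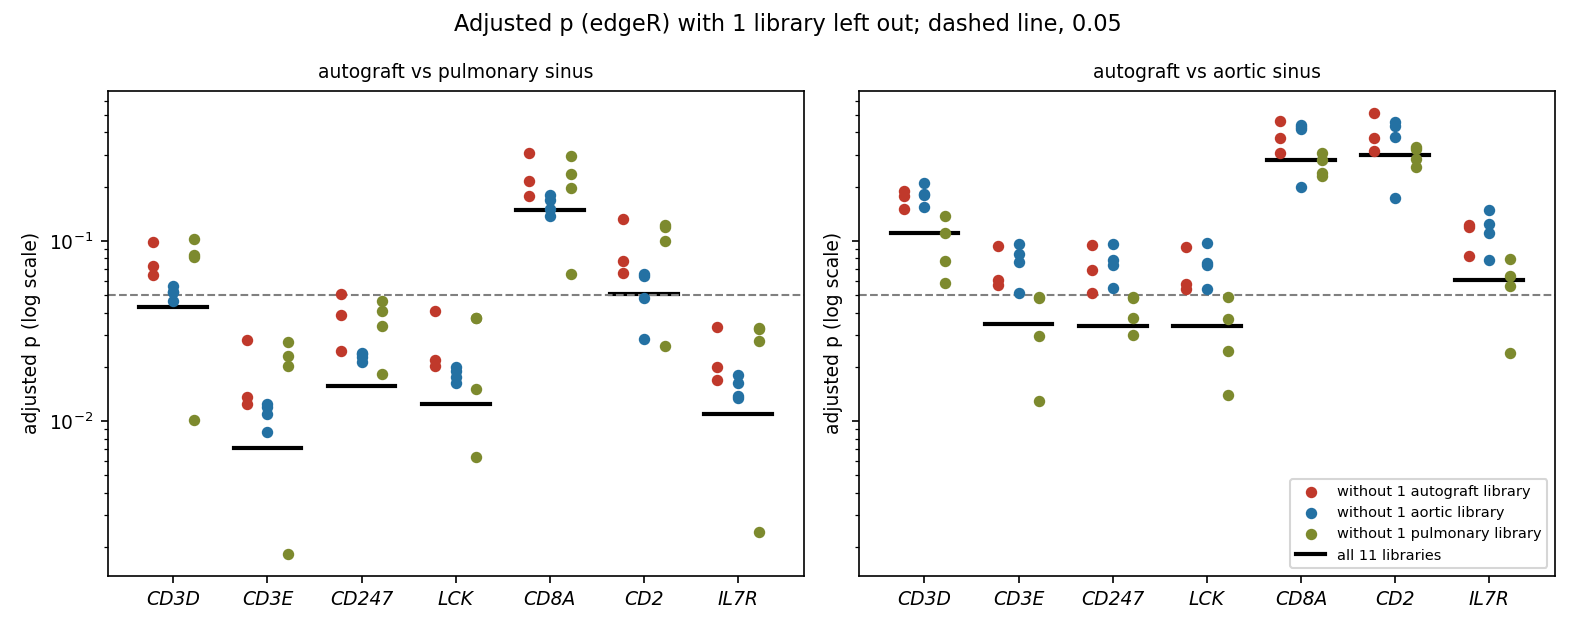
Adjusted p of edgeR's test (log axis) for each tested gene with all 11 libraries (black bar) and with 1 library left out (points, coloured by the group it came from), against pulmonary sinus (left) and aortic sinus (right). The dashed line is 0.05. CD3E, LCK and IL7R stay under it in every fit on the left, while on the right the fits without an autograft or aortic library lie above it for CD3E, CD247 and LCK.

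Levels of different genes can be set side by side only per length, for which the authors' deposited FPKM were used (mean of 2 runs). In autograft, CD3E was highest with 6.38 ± 0.305 FPKM (SD, n = 3) and CD247 came next with 4.25 ± 0.516 FPKM. IL7R with 2.49 ± 0.497, CD3D with 2.43 ± 0.357 and CD2 with 2.41 ± 0.901 FPKM followed and were within each other's spread. LCK at 1.5 ± 0.0424 and CD8A at 1.18 ± 0.286 FPKM were lowest. In native tissue CD247 had 1.65 ± 0.403 FPKM in aortic and 1.69 ± 0.418 FPKM in pulmonary sinus (n = 4 each), against 1.49 ± 0.569 and 0.783 ± 0.414 FPKM for CD3E, which in aortic sinus was within the spread. In pulmonary sinus IL7R at 0.153 ± 0.128, LCK at 0.283 ± 0.175 and CD3D at 0.284 ± 0.297 FPKM were within each other's spread. The deposited FPKM of CD3D was at least 0.0978 in every pulmonary library, replicate 2 with its 0 counts included, so low FPKM do not rank genes. CD4 has no FPKM.

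Of 15 other listed genes of the receptor complex and the T cell surface, 8 had counts and 6 were tested. Against pulmonary sinus 5 rose and 0 fell, with a median log2 fold change of 3.44. CD3G, the gamma chain, held 78, 59 and 61 counts in autograft, 18, 10, 8 and 4 in aortic and 9, 0, 0 and 3 in pulmonary libraries, and rose by a log2 of 4.45 ± 0.89 (SE, edgeR adjusted p 0.0156). CD5 and CD6, scavenger-type receptors that tune receptor signalling, CD96 and the adaptor SIT1 were the other 4, with log2 fold changes of 2.65 to 3.87, and all 5 calls were kept with any 1 library left out. Against aortic sinus 2 rose, CD96 (log2 3.1 ± 0.61, edgeR adjusted p 0.0338) and SIT1 (log2 2.3 ± 0.45, edgeR adjusted p 0.0338), and both were lost without aortic replicate 3 (edgeR adjusted p 0.0969 and 0.0951), among others. Only 2 of the 6 passed the filter on native libraries alone, so the count is not read as support. CD8B, the partner of CD8A, was not called in either comparison. Its counts were 24, 58 and 108 in autograft, 76, 129, 117 and 20 in aortic and 66, 87, 162 and 29 in pulmonary libraries, and its log2 fold change was -0.31 ± 0.67 against pulmonary and -0.32 ± 0.67 against aortic sinus (edgeR adjusted p 0.785 and 0.808).

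Of the genes that act downstream of the receptor, 20 of 24 were tested. Against pulmonary sinus 11 rose and 1 fell. On native libraries alone 18 of the 20 passed the filter, and 9 of those 18 rose. TXK, a kinase of T cells, rose by a log2 of 3.6 ± 0.62 (SE, edgeR adjusted p 0.0112), but it passed the filter only through the autograft libraries. FYN, a kinase related to LCK that many cell types express, rose by 1.25 ± 0.23 at a far higher level, with a mean of 114 ± 38.5 CPM in autograft and 48.2 ± 6.81 CPM in pulmonary sinus (SD). The adaptors LCP2 and FYB and the actin regulator WAS rose by 2.07, 2.09 and 1.98, and all 3 calls were lost without autograft replicate 2 (edgeR adjusted p 0.056, 0.0661 and 0.0788). NFATC1, a calcium-activated transcription factor, fell by 1.39 on the log2 scale (edgeR adjusted p 0.0322), which was lost without pulmonary replicate 2 (0.077). Without autograft replicate 2, 3 of the 20 were still called higher. Against aortic sinus FYN and TXK rose, by 1.14 ± 0.23 and 3.3 ± 0.6 (edgeR adjusted p 0.0347 and 0.0281), and NFATC1 fell by 1.54 on the log2 scale (edgeR adjusted p 0.0489). Without autograft replicate 2 the FYN and NFATC1 calls ended (edgeR adjusted p 0.105 and 0.118), and without aortic replicate 3 that of TXK did (0.092).

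In a list of genes that mostly restrain receptor signalling, 6 of 14 tested rose against pulmonary sinus and 0 fell. PTPRC, the CD45 phosphatase found on all white blood cells, is in the list but is not a brake alone. It rose by a log2 of 2.47 ± 0.45 (SE, edgeR adjusted p 0.0124), with 22.3 ± 4.19 CPM in autograft and 4.03 ± 2.18 CPM in pulmonary sinus (SD). The adaptor SLA rose by 2.78 ± 0.55 (edgeR adjusted p 0.0153), and PTPN6, UBASH3B and DUSP2 by 1.51, 1.86 and 2.62. The calls of SLA and UBASH3B were lost without autograft replicate 2 (edgeR adjusted p 0.0545 and 0.082), that of PTPN6 without autograft replicate 1 (0.107) and that of DUSP2 without autograft replicate 3 (0.0929). PTPN22, a phosphatase of lymphocytes, held 34, 10 and 17 counts in autograft, 0 in all 4 aortic libraries and 1, 0, 3 and 1 counts in pulmonary libraries. It was called against pulmonary sinus (edgeR adjusted p 0.0219, lost without autograft replicate 1 at 0.0545) and was the only gene of this list called against aortic sinus (0.027), a call lost without aortic replicate 3 (0.0807). PTPN22 passed the filter only through the autograft libraries. Of the 12 genes that passed on native libraries alone, 5 rose against pulmonary and 0 against aortic sinus. Without autograft replicate 2, 2 of the 14 were called against pulmonary sinus. The mean log2 ratio of CD3E to PTPRC, which sets T cell signal against all white blood cell signal, was -1.47 ± 0.35 in autograft (SD, n = 3), -1.63 ± 0.91 in aortic and -2.02 ± 0.29 in pulmonary sinus (n = 4 each). It differed by 0.55 between autograft and pulmonary sinus (exact permutation p = 0.0857) and by 0.16 between autograft and aortic sinus (exact permutation p = 0.771), with adjusted p over the 9 ratio tests of 0.257 and 0.964.

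IL7R shares the common gamma chain pathway with the interleukin-2 and interleukin-15 receptors. Of 12 tested genes of that pathway, 4 rose against pulmonary sinus and 2 against aortic sinus, and 0 fell. IL2RB, the chain shared by the interleukin-2 and interleukin-15 receptors, held 249, 190 and 119 counts in autograft, 10, 28, 16 and 19 in aortic and 11, 4, 7 and 6 in pulmonary libraries. It rose by a log2 of 4.78 ± 0.44 (SE, edgeR adjusted p 0.00142) against pulmonary and 3.45 ± 0.41 (edgeR adjusted p 0.00516) against aortic sinus, and both calls were kept with any 1 library left out. IL2RG, the common gamma chain that IL7R pairs with, rose by 2.71 ± 0.39 (edgeR adjusted p 0.00671) and 2.19 ± 0.38 (edgeR adjusted p 0.0261), the second lost without aortic replicate 3 (0.0834). IL15RA rose by 2.21 and the kinase JAK3 by 1.71 against pulmonary sinus, JAK3 being lost without autograft replicate 2 (edgeR adjusted p 0.134). The cytokine IL7 was low, with 44, 21 and 7 counts in autograft, 21, 30, 21 and 6 in aortic and 33, 2, 1 and 5 in pulmonary libraries.

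Costimulatory and checkpoint receptors were mostly too low to test, with 5 of 16 tested. SLAMF6 and TIGIT rose against pulmonary sinus, by a log2 of 4.02 ± 0.76 and 3.45 ± 0.87 (SE, edgeR adjusted p 0.0142 and 0.0323), TIGIT being lost without autograft replicate 2 (0.0855). Both passed the filter only through the autograft libraries, and of the 3 that passed on native libraries alone 0 were called, so the count is not read as support. Against aortic sinus none was called, the lowest edgeR adjusted p being 0.0536 for SLAMF6. PDCD1, the gene of the PD-1 checkpoint, held 2, 4 and 3 counts in autograft and at most 3 in any native library. Of 14 tested transcription factors of T cells, 5 rose against pulmonary sinus (IKZF1, IKZF3, RUNX1, RUNX3 and PRDM1, by 2.38 to 3.51) and 0 against aortic sinus. IKZF3 passed the filter only through the autograft libraries. IKZF1 and IKZF3, lymphocyte factors, kept their calls with any 1 library left out, while the call of RUNX3 was lost without autograft replicate 3, that of RUNX1 without pulmonary replicate 3 and that of PRDM1 without autograft replicate 2 (edgeR adjusted p 0.124, 0.0685 and 0.0665).

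Receptors for T cell entry and retention rose against pulmonary sinus in 6 of 10 tested genes (CD69, CXCR6 and ITGAL among them), with 0 called against aortic sinus. CD69, CXCR6 and CCR4 passed the filter only through the autograft libraries, and of the 7 genes that passed on native libraries alone, 3 rose. CD69, a retention and activation marker, held 10, 13 and 57 counts in autograft, 5, 1, 1 and 5 in aortic and 2, 0, 1 and 0 in pulmonary libraries. CXCR6, a chemokine receptor of tissue lymphocytes, rose by a log2 of 3.94 ± 0.77 (SE) and the integrin gene ITGAL by 2.77 ± 0.53 (edgeR adjusted p 0.0149 and 0.0142), and these calls and that of CD69 were kept with any 1 library left out. The calls of S1PR1 and CCR4 were lost without autograft replicate 2 (edgeR adjusted p 0.138 and 0.107), and without pulmonary replicate 2 only 3 of the 10 were called. S1PR1, the egress receptor, is also an endothelial gene and had 363, 3623 and 2855 counts in the autograft libraries. The list on ligands of CD2, CD4 and CD8 had 5 tested genes: CD58, CIITA, CD74, B2M and IL16. CIITA and CD74 are linked to such ligands but are not ligands of these receptors. B2M alone rose, by 1.09 ± 0.23 (edgeR adjusted p 0.0184) against pulmonary sinus. That call was lost without autograft replicate 2 (0.0637).

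**Figure D4:**
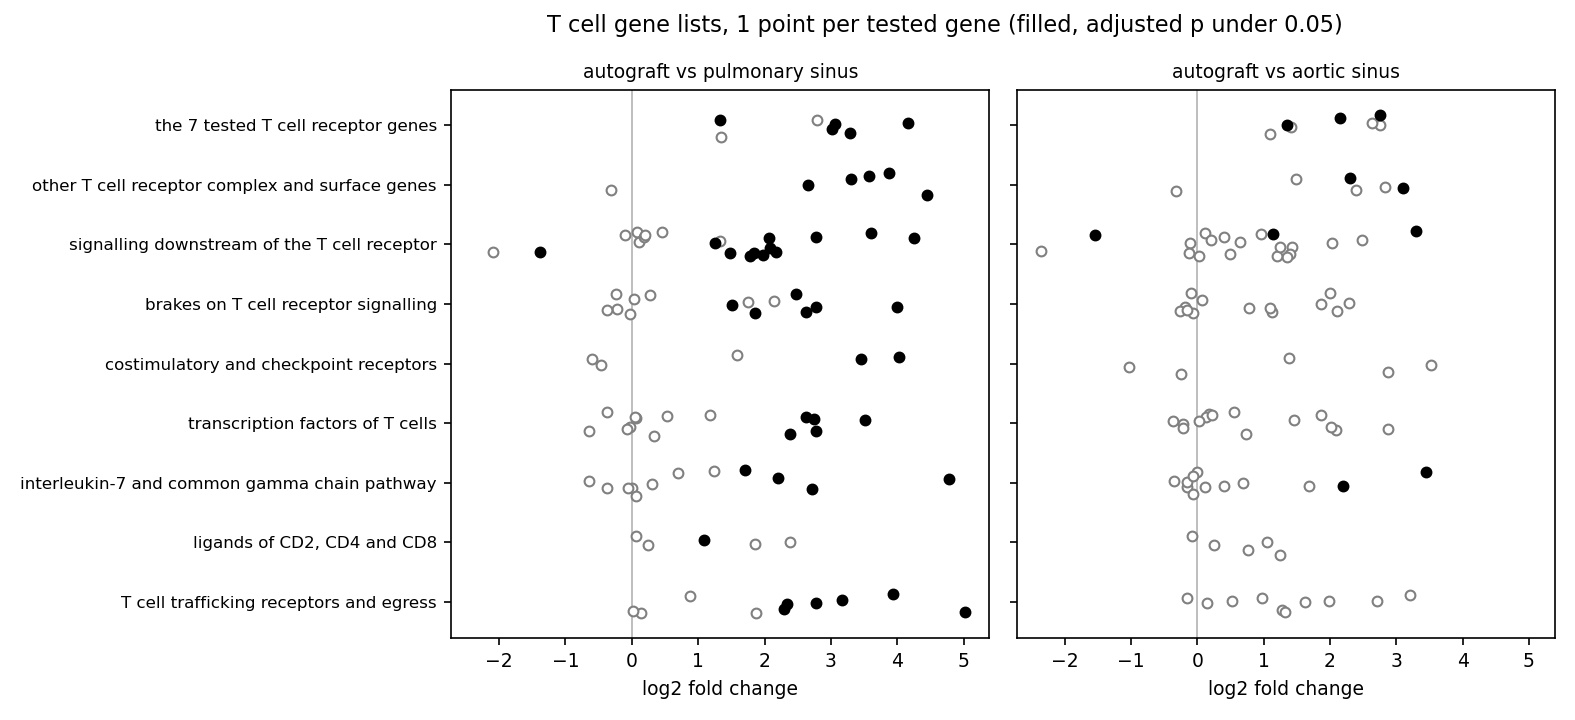
Log2 fold change of every tested gene in the T cell lists, against pulmonary sinus (left) and aortic sinus (right), 1 point per gene with a small random vertical offset. Filled points have an edgeR adjusted p under 0.05. PTPN22, at 0 counts in all aortic libraries, is left out on the right. Filled points are frequent on the left (5 of 6 among other receptor genes, 11 higher of 20 downstream) and few on the right.

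Markers of other cells moved too. Of 6 tested natural killer cell markers, 5 rose against pulmonary and 2 against aortic sinus, and the list's summed level was 46.6 to 104 CPM in autograft, 14.8 to 40.2 CPM in aortic and 13.4 to 30.5 CPM in pulmonary libraries. The 2 called in both, NKG7 and CTSW, are cytotoxic genes that T cells also express; CTSW rose by a log2 of 4.17 ± 0.4 and 2.86 ± 0.37 (SE, edgeR adjusted p 0.00142 and 0.00901). FCER1G, TYROBP and SYK, signalling genes of myeloid cells as well, were the other 3, and all 3 calls were lost without autograft replicate 2 (edgeR adjusted p 0.0763, 0.117 and 0.0857). FCER1G and TYROBP also stand in the macrophage list. Of the other genes of the natural killer list, NCR3, the sixth tested, was not called, with 40, 30 and 33 counts in autograft, 12, 20, 6 and 20 in aortic and 18, 23, 13 and 20 in pulmonary libraries. KLRB1 held 10, 1 and 3 counts in autograft, 0, 0, 0 and 1 in aortic and 0, 0, 0 and 1 in pulmonary libraries. NCR1 held 2, 0 and 0 counts in autograft and 0 in all native libraries. GNLY held 0 in all autograft libraries, 14, 0, 1 and 0 in aortic and 0, 4, 0 and 0 in pulmonary libraries. Of 3 tested B and plasma cell markers, 2 rose against pulmonary and 1 against aortic sinus, with a summed level of 16.8 to 63.9 CPM in autograft, 8.17 to 9.53 in aortic and 5.42 to 8.81 in pulmonary libraries. The JCHAIN call against pulmonary sinus and the BANK1 call against aortic sinus were each lost in 8 of 11 fits with 1 library left out, with edgeR adjusted p of up to 0.188 (without autograft replicate 2) and 0.118 (without aortic replicate 3). PAX5 was at 0 throughout. Of 13 tested macrophage markers, 6 rose against pulmonary and 0 against aortic sinus, with 235 to 1468 CPM in autograft, 168 to 503 in aortic and 86.4 to 381 in pulmonary libraries. Without autograft replicate 2, 0 of the 13 macrophage markers were called. The part of these cells in the results was not tested.

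Wall cells moved as well. Of 7 tested smooth muscle markers, 3 fell against pulmonary and 1, MYOCD, against aortic sinus, while 2 of 6 fibroblast markers, DCN and COL1A1, rose in both, the aortic calls being lost without aortic replicate 3 (edgeR adjusted p 0.133 and 0.0924). Endothelial markers rose in 2 of 7 genes against pulmonary sinus and 0 against aortic sinus, with a summed level of 130 to 1542 CPM in autograft, 221 to 552 in aortic and 113 to 390 in pulmonary libraries. Dendritic cell markers rose in 2 of 5 and lymphatic endothelial markers in 1 of 5 (PDPN) against pulmonary sinus, and in 0 of 5 and 1 of 5 against aortic sinus. PDPN does not stand for its list: the median log2 fold change of the 5 lymphatic genes was -0.71 against pulmonary and -1.19 against aortic sinus. The aortic call of PDPN was lost without aortic replicate 3 (edgeR adjusted p 0.0503). With 1 library left out, the counts against pulmonary sinus were 0 to 7 for endothelium and 0 to 2 for dendritic cells (each 0 without autograft replicate 2), 1 to 3 lower for smooth muscle and 1 to 4 higher for fibroblasts. Of 2 tested red cell and platelet markers none was called in either. Macrophage markers in autograft replicate 3 (235 CPM) lay below aortic replicates 1, 2 and 4, while its sum over the 8 measured T cell receptor genes, 33.2 CPM, lay above all native libraries, which had 5.78 to 11.9 CPM in aortic and 3.37 to 9.32 CPM in pulmonary sinus. Likewise, endothelial markers were low in autograft replicate 1 (130 CPM), whose sum of the T cell receptor genes was 40.4 CPM. That sum was the highest only through IL7R, which gave 17.6 CPM of it, against 10.9 and 10.7 CPM in autograft replicates 2 and 3. The T cell receptor genes were not alone in lying above all native libraries: the natural killer and the B and plasma cell sums of every autograft library did so too. So did the fibroblast sums, at 12611 to 15857 CPM in autograft, 6042 to 7083 in aortic and 3163 to 8915 in pulmonary libraries. Sums compare libraries and not genes.

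**Figure D5:**
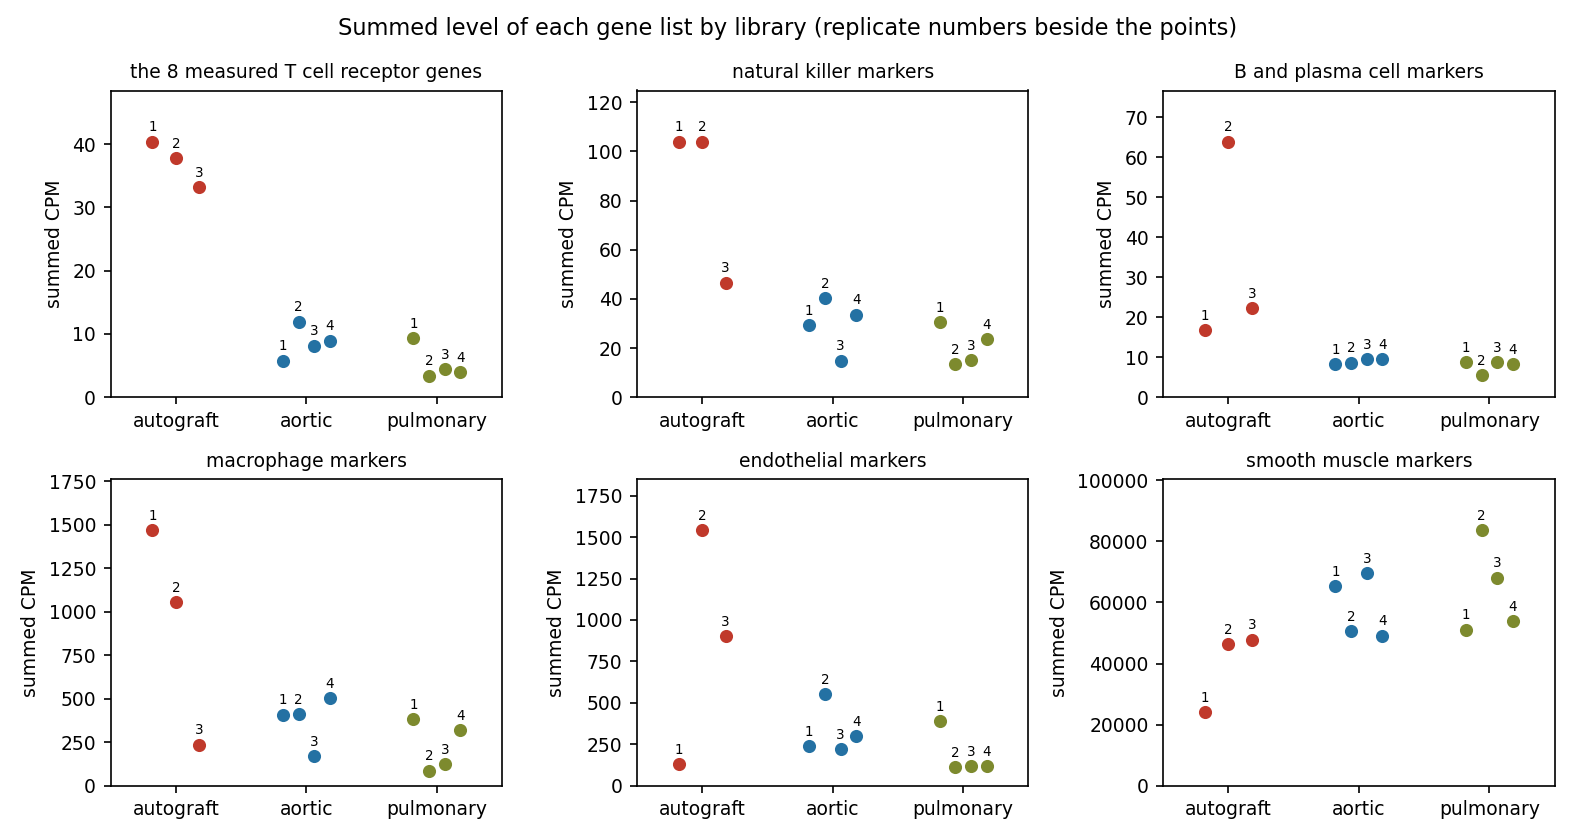
Summed CPM of the 8 measured T cell receptor genes and of 5 marker lists in each library, with replicate numbers beside the points and axes that start at 0. The T cell receptor gene sum is 33.2 to 40.4 CPM in autograft libraries and at most 11.9 CPM in native libraries, whereas macrophage and endothelial sums vary several-fold among the 3 autograft libraries. Natural killer and B and plasma cell sums also lie above all native libraries in every autograft library.

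The genes whose levels tracked the 3 receptor chains most closely, by Pearson correlation over the 11 libraries with the mean standardised log2 CPM of CD3D, CD3E and CD247, were LOC101122689 (r = 0.979), IL2RB (0.975), ITGAD (0.975), LAMP3 (0.974), SLAMF6 (0.97), GFI1 (0.967), COL1A1 (0.966) and SMIM3 (0.958). Over the 8 native libraries alone r was between 0.73 and 0.89. The 11 points share the group difference, and the genes were picked on all 11 libraries, the 8 native ones included. Both sets of r are therefore a description. SLAMF6, ITGAD and GFI1 averaged at most 0.21 CPM in either native group, under the filter's 0.56 CPM, so their native r rests on few counts. COL1A1, a fibroblast collagen gene, is also among the genes that tracked the chains, with 4435 ± 679 CPM in autograft, 2021 ± 404 CPM in aortic and 1660 ± 336 CPM in pulmonary sinus (SD, n = 3, 4 and 4). Of the other listed genes, IL7R had r = 0.947, LCK 0.88, CD8A 0.778 and CD2 0.667.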

How the data were processed

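Per the labels' protocols, TRIzol RNA went into TruSeq libraries. The submitters' processing notes list STAR 2.5.2b, featureCounts 1.5.3, Bowtie2 2.3.3.1 and cutadapt, with no role or order. Build, annotation, strand setting and the FPKM step: not given in the sources used here. Overlapping genes and close copies may therefore share reads. The authors deposited raw counts and FPKM values per gene, 1 table of each for each of 2 sequencing runs. The deposited FPKM appear to share 1 distribution over the libraries, which was not tested. They served only for levels between genes (mean of 2 runs) and, from run 2 alone, as an alternative. Raw counts of both runs were added per library, since the chi-square per gene was 1.38 to 1.51 between runs and 30.1 to 105 between libraries of 1 group. Counts without a gene name, at most 0.000522% of a library, were left out.

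Genes were filtered by edgeR's filterByExpr (0.56 CPM in 3 libraries, total of at least 15) and scaled by TMM. All 11 libraries entered 1 edgeR 4.0.16 quasi-likelihood model without a block (R 4.3.3), with Benjamini-Hochberg adjustment over 14979 genes. DESeq2 1.42.0 and limma 3.58.1 were alternatives. Ratios within a library were compared by two-sided exact permutation tests. The scripts were tested on simulated data. The members, gene lists and tests were chosen with earlier results of these data known. All 9 members are named. Of each other list, up to 6 called genes with the smallest p are named, or up to 2 where none was called. The macrophage, dendritic cell, endothelial and smooth muscle lists depart from this: their called genes are given mostly as counts and not by name. A few other genes (CD8B, IL7, PDCD1, NFATC1 against pulmonary sinus, and marker genes at or near 0) were chosen after their values were seen. The results of 2 genes of these lists are not reported here. Animal names in the labels pair aortic with pulmonary libraries. Deviations from the group means correlated by -0.18 (D3), -0.13 (D4), 0.43 (D5) and 0.45 (D6), and by 0.4 and 0.26 in the crossed pairs aortic 2 with pulmonary 1 and aortic 1 with pulmonary 2. The pairing of D3 and D4 is therefore uncertain, as are the blocked fits and the fit without animal D3.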

Additional observations from a re-analysis of the deposited data

Results flagged for a closer look

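Pulmonary replicate 1 (animal D3) lay far from the other 3 pulmonary libraries in 3 of 22 group values checked for a library that stands apart. It had 1.92 CPM of CD3E, where the others had 0.457 to 0.703 CPM, and 1.92 CPM of IL7R, where the others had 0.228 to 0.515 CPM. Its log2 ratio of CD247 to CD3E was -0.646, against 1.1 to 1.32 in the others. Chance gives such a finding in about 1 of 20 groups of 4. The 3 values are not independent, since the ratio contains CD3E. CD3E and IL7R were flagged narrowly: the gap to the next library, as a part of the group's range, was 0.832 and 0.831 against a critical value of 0.829. Without this library CD3E had a log2 fold change of 3.64 against pulmonary sinus (edgeR adjusted p 0.00184), and 6 of the 9 genes were called there. The number of all genes called against pulmonary sinus ran from 452 to 2753 with 1 library left out, so the 6 are not read alone.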

How the results depend on the processing

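Of the 9 genes, the number called against pulmonary sinus was 5 (3 to 6 with 1 library left out), and 3 when only the 2 groups were fitted. It was also 3 with FPKM + 1 at a mean of at least 1, a filter that removed CD3D, CD8A, LCK and IL7R. All 3 genes left in that fit (CD3E, CD247 and CD2) were called. Against aortic sinus the number called was 3 (0 to 4 with 1 library left out), 5 with DESeq2, limma-voom or FPKM + 1, and 1 with run 1 alone. Between aortic and pulmonary sinus it was 0 throughout. The number of all genes called was 1699 against pulmonary sinus (452 to 2753 with 1 library left out, 479 to 2997 otherwise) and 356 against aortic sinus (25 to 576, and 110 to 1469). With a random replicate block by animal the counts of the 9 genes were 6, 4 and 0, and with a fixed replicate block 5, 2 and 0; the fixed block ended CD3D against pulmonary sinus and CD3E against aortic sinus (edgeR adjusted p 0.0515). Signs turned only where neither value was called, and the cause was not tested. Between aortic and pulmonary sinus, CD3D had log2 fold changes of -0.0 and -0.05 with FPKM + 1 and FPKM + 0.1, and CD8A -0.02 and -0.16. CD8A had -0.18 without aortic replicate 2 and -0.07 without pulmonary replicate 4 (range -0.18 to 0.66). With run 1 alone CD247 had 0.78 and LCK -0.85. CD247 had 0.06 without aortic replicate 4 or pulmonary replicate 3 and 0.02 without pulmonary replicate 4 (range -0.13 to 0.06), where LCK had -0.1 (range -0.1 to 0.64). The CD8A to CD4 ratio, autograft against aortic, was 0.21 and 0.43 with run 1 or run 2 alone, 0.14 without autograft replicate 1 and 0.48 without aortic replicate 2 (range -0.41 to 0.48). Against pulmonary sinus it was -0.51 with a pseudocount of 0.5 and -0.4 to 0.72 with 1 library left out, and between aortic and pulmonary sinus -0.4 to 0.73. The CD3E to PTPRC ratio, autograft against aortic, was -0.22 to 0.52. Depth limits CD4 (at most 5 counts a library) and, in native tissue, CD3D and LCK (at most 15 and 14 counts).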

Other observations

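Within the autograft, replicate 3 held most of the counts of several lymphoid genes, which were chosen after their values were seen. CCR7, a lymph node homing receptor, had 2, 4 and 67 counts in the autograft libraries, 0, 3, 1 and 0 in the aortic libraries and 0 in all pulmonary libraries. The B cell genes MS4A1, with 5, 1 and 22 counts, and CD79A, with 3, 18 and 38 counts, were highest in the same library, while JCHAIN, a plasma cell gene, was highest in autograft replicate 2 with 131, 933 and 222 counts. ALAS2, a gene of red cell precursors, had 0, 1 and 672 counts in the autograft libraries and at most 3 in any native library. TBX21, a transcription factor of cytotoxic and helper type 1 T cells, had 14, 33 and 9 counts in autograft, 2, 3, 1 and 3 in aortic and 0 in all 4 pulmonary libraries. FOXP3, of regulatory T cells, had 13, 7 and 5 counts in autograft, 9, 14, 5 and 3 in aortic and 7, 5, 19 and 6 in pulmonary libraries, so its groups overlapped.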
